A study of Homo sapiens with 16 samples.

Results

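RAJI and P493-6, the mature B cell lines in a series of 8 human blood cancer lines, were compared with each other, line against line. The comparison used 4 of the 16 mRNA libraries of the series, chosen by their cell line labels: RAJI with the peptide 3R, RAJI with the peptide Y518R, P493-6 with 3R and P493-6 with Y518R. RAJI is labelled as Burkitt's lymphoma and P493-6 as a model of that disease. Per the labels, Y518R binds DPY30, and 3R does not. DPY30 belongs to all SET1/MLL complexes, the enzymes that methylate lysine 4 of histone H3. The lines were kept in Advanced RPMI medium with fetal bovine serum, and all 4 libraries came from cells given a peptide, so none is an untreated baseline. Each line is a single established culture with 1 library per peptide, and the labels do not say whether libraries of a line came from separate cultures. Differences therefore hold between these lines, not between classes of lymphoma. The p-values rest on the spread between libraries of a line after a shared peptide effect, pooled over all 8 lines. That spread may hold technical variation and responses to the peptide that differ by line.

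As background, Burkitt's lymphoma is a tumour of germinal centre B cells in which a translocation places the MYC gene under an immunoglobulin enhancer, and RAJI carries that translocation and the Epstein-Barr virus. P493-6 was made from B cells immortalized by the same virus. It carries a MYC transgene that tetracycline turns off, and its viral transactivator EBNA2 depends on added oestrogen. The labels do not say whether tetracycline or oestrogen was in the medium. MYC is a transcription factor that pairs with MAX and drives growth genes. NF-kappaB factors are released by CD40, the B cell receptor or viral LMP1, and they drive survival and activation genes of B cells.

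Of 23230 gene symbols, 13178 passed the expression filter, and 12925 of these were taken to have poly(A) tails and are reported. A gene was called when the edgeR quasi-likelihood test gave an adjusted p under 0.05 and it differed at least 2-fold, in the same direction, with each peptide. By that rule 1704 genes were higher in RAJI, which is 13.2% of the genes tested, and 2452 were higher in P493-6, which is 19%. Without the fold minimum, 4045 genes (31.3%) were higher in RAJI and 4397 (34%) in P493-6, and only 2 genes past the adjusted p went opposite ways with the peptides. The median log2 difference, RAJI minus P493-6, over all genes tested was -0.041. Levels are CPM, read counts divided by TMM-scaled depth in units of 1e+06 reads, given first for the 3R and then for the Y518R library. They are not corrected for gene length, so levels of different genes are not compared. A ± value with a log2 difference is its size divided by the square root of the test's F statistic, an approximate standard error.

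The RAJI 3R library stood apart from the other 3. Reads given to no gene made up 44.7% of its reads against 23.4% in RAJI Y518R and 26.3% and 26.9% in P493-6, and RNA genes without poly(A) tails summed to 2440 CPM against 1310 to 1530. Depth was 19354300 and 19398253 gene counts in RAJI and 29521409 and 30109539 in P493-6. Chi-square per degree of freedom between libraries of a line was 23 in RAJI and 8.37 in P493-6, so neither pair was a library deposited again. Rank correlation across genes, which are not independent replicates, was 0.990 within RAJI, 0.997 within P493-6 and 0.810 to 0.817 between the lines. Without the RAJI 3R library 1740 genes were called higher in RAJI and 2652 higher in P493-6, and 1545 and 2293 of these were among the calls above. Counts of list genes are given below with and without that library wherever they differ.

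**Figure D1:**
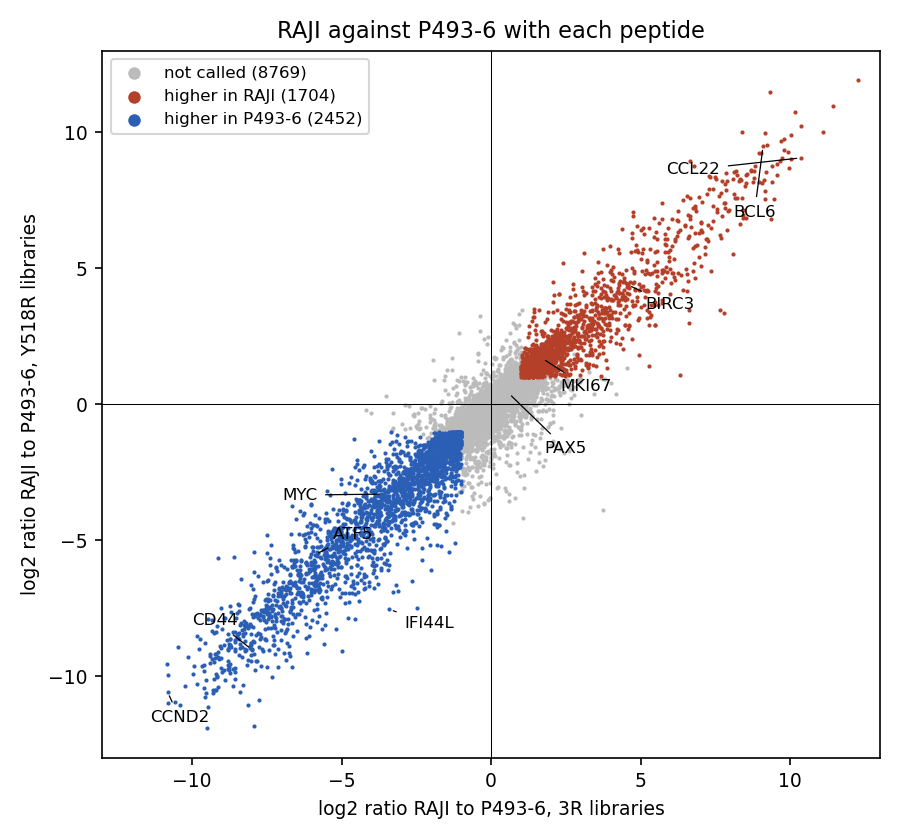
Each point is 1 of the 12925 genes tested, with the log2 ratio of RAJI to P493-6 between the 3R libraries on the horizontal axis and between the Y518R libraries on the vertical axis. Red marks the 1704 genes called higher in RAJI, blue the 2452 called higher in P493-6 and grey the rest; labelled genes are described in the text.

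MicroRNA host transcripts show the lines' contrast at named sequences. MIR155HG, whose transcript is processed to miR-155, a microRNA of activated B cells, was at 126 and 65.9 CPM in RAJI and 16.9 and 15.7 in P493-6, a log2 difference of 2.54 ± 0.31, adjusted p = 2.54e-06. MIR17HG, the host of the miR-17-92 cluster and a known MYC target, was at 18.8 and 18.8 CPM in RAJI and 73.8 and 76 in P493-6 (-1.99 ± 0.15, adjusted p = 1.23e-08). RAJI was higher for MIR155HG and P493-6 for MIR17HG in every pairing of libraries. A call of at least 2-fold with each peptide makes this likely, so it adds no support. The mature microRNAs themselves were not measured. Their sequences, from RefSeq (GRCh38.p14, plus strand, 5′ to 3′), are shown because they name the products of both hosts, with the seed (bases 2 to 8) in capitals. miR-155-5p lies at chr21:25573983-25574006 and the 6 main products of the cluster lie between chr13:91350618-91350640 (miR-17-5p) and chr13:91351361-91351382 (miR-92a-3p).
miR-155-5p: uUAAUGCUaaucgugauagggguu
miR-17-5p: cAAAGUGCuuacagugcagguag
miR-20a-5p: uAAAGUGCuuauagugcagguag
miR-18a-5p: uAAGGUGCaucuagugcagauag
miR-19a-3p: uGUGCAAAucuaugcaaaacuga
miR-19b-3p: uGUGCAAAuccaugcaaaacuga
miR-92a-3p: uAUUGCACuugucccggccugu
By seed, miR-17-5p and miR-20a-5p share AAAGUGC, miR-19a-3p and miR-19b-3p share GUGCAAA, and the other 3 sequences each have a seed of their own.

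Both lines carried the B cell markers given for them. PAX5, the factor that holds B cell identity, was at 156 and 137 CPM in RAJI and 104 and 102 in P493-6. MS4A1, which encodes CD20, was at 1338 and 999.5 CPM in RAJI and 917 and 902 in P493-6. Both RAJI libraries were above both P493-6 libraries for MS4A1, but the log2 difference of 0.37 ± 0.21, adjusted p = 0.125 did not pass the test, and it was -0.08 without the RAJI 3R library and 0.73 without RAJI Y518R (adjusted p = 0.00726). CD79A, a signalling chain of the B cell receptor, was at 542 and 548 CPM in RAJI and 389 and 417 in P493-6, and its partner CD79B was at 478 and 448 CPM in RAJI and 339 and 357 in P493-6. Both differences were under 2-fold, and that of CD79B did not pass the test without RAJI 3R (adjusted p = 0.203), P493-6 3R (0.0978) or P493-6 Y518R (0.132). Because these are bulk libraries, fewer cells making a transcript and less transcript per cell cannot be told apart.

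Markers of T and NK, myeloid and erythroid cells were low in both lines. Of 18 T and NK cell markers, 12 were under 1 CPM in all 4 libraries, with a summed level of 34.9 and 19.1 CPM in RAJI and 23.6 and 20.4 in P493-6; CD8B was at 0 counts and CD3D at no more than 0.231 CPM. Of 17 myeloid markers, 10 were under 1 CPM everywhere and MPO was at 0 counts. Their sum was 13.3 and 8.55 CPM in RAJI and 39 and 38.5 in P493-6, where ITGAM, an integrin chain, made up 17.9 and 16.3 CPM. Of 15 erythroid and megakaryocyte markers, 11 were under 1 CPM everywhere, and HBB, PF4 and GP9 were at 0 counts. The 11 precursor B cell markers summed to more, 221 and 240 CPM in RAJI and 197 and 210 in P493-6, although 6 of them, among them CD34 at 0 counts, RAG1, RAG2 and DNTT, were under 1 CPM in all 4 libraries. The sum in RAJI came largely from MME, described with the germinal centre genes, and VPREB3, a pre-B cell gene at 74 and 54.5 CPM in RAJI and 19 and 19.9 in P493-6 (1.72 ± 0.28, adjusted p = 5.86e-05). In P493-6 it came largely from LEF1, a factor of early lymphoid cells at 0.821 and 0.717 CPM in RAJI and 120.3 and 133 in P493-6 (-7.35 ± 0.21, adjusted p = 1.79e-13), and SOX4, a factor of lymphoid progenitors at 15 and 16.4 CPM in RAJI and 46 and 44.2 in P493-6 (-1.52 ± 0.13, adjusted p = 4.14e-08). VPREB1 was the third call toward P493-6, at no more than 2.24 CPM. The part of these differences in other results was not tested.

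MYC was higher in P493-6. It was at 422 and 453 CPM in RAJI and 5101 and 4473 in P493-6, a log2 difference of -3.45 ± 0.26, adjusted p = 1.05e-08, or 10.95-fold higher in P493-6. In the 12 libraries of the other 6 lines MYC ran from 125 to 746 CPM, so both P493-6 libraries were above every other library and RAJI was within that range. Of 12 tested genes of the MYC network, 4 (33.3%) were called higher in P493-6 and none higher in RAJI, against 19% and 13.2% of all genes, and 10 of 12 had a log2 difference below 0, with a median of -0.79. MAX, the partner of MYC, was at 73.2 and 81.9 CPM in RAJI and 131 and 126 in P493-6 (-0.73 ± 0.1, adjusted p = 9.64e-06), past the adjusted p but under 2-fold. Besides MYC itself, the calls were MYCL1, a paralogue at 1.9 and 1.28 CPM in RAJI and 6.99 and 7.47 in P493-6, and a pair of antagonists. The antagonists MNT (-1.06 ± 0.17, adjusted p = 5.63e-05) and MXD4 (-1.36 ± 0.15, adjusted p = 6.79e-07), which compete with MYC for MAX, were both higher in P493-6. MXD3, another antagonist, passed the adjusted p in the other direction (1.07 ± 0.17, adjusted p = 6.07e-05) but was under 2-fold between the Y518R libraries.

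Of 30 genes of ribosome biogenesis and the nucleolus, often taken as MYC targets, none was called in either direction. Over all genes, 13.2% were called higher in RAJI and 19% higher in P493-6. The median log2 difference of the list was -0.22. Without the fold minimum, 11 passed the adjusted p as higher in P493-6 and 2 as higher in RAJI. The shares of all genes were 34% and 31.3%. At an unadjusted p under 0.05 the list gave 12 and 2. DESeq2 also called none, and without the RAJI Y518R library 3 were called higher in P493-6. NOL6, a nucleolar protein of the small ribosomal subunit pathway, had the lowest value of the list, with 108 and 134 CPM in RAJI and 233 and 229.8 in P493-6 (-0.94 ± 0.12, adjusted p = 6.29e-06). FBL, the fibrillarin methyltransferase, was at 343 and 377 CPM in RAJI and 579 and 576 in P493-6 (-0.68 ± 0.13, adjusted p = 0.000268). POLR1A, the large subunit of RNA polymerase I, was one of the genes higher in RAJI, at 167 and 219 CPM against 144 and 134 in P493-6 (0.47 ± 0.12, adjusted p = 0.00352), and it no longer passed without the RAJI Y518R library (adjusted p = 0.0775) or the P493-6 Y518R library (adjusted p = 0.0892). In RAJI all 30 genes of this list were lower in the 3R than in the Y518R library, with a median log2 ratio of -0.26, against 12 of 30 that were not higher in P493-6. Over all genes tested, 52.5% were higher in the 3R library in RAJI and 52.1% in P493-6. The part of this gap between the RAJI libraries in the comparison was not tested.

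Of 20 genes of nucleotide and polyamine synthesis, 4 (20%) were called higher in RAJI, or 5 without the RAJI 3R library, against 13.2% of all genes. None was called higher in P493-6, against 19% of all genes. In that direction 3 passed the adjusted p, against 34% of all genes, and 4 the unadjusted p. DESeq2 called the same numbers. The 4 called genes make or salvage deoxynucleotides. RRM2, the regulated subunit of ribonucleotide reductase, was at 267 and 299 CPM in RAJI and 23.9 and 20.5 in P493-6 (3.66 ± 0.16, adjusted p = 1.94e-11). RRM1, its partner subunit, differed by 1.3 ± 0.13, adjusted p = 4.26e-07, thymidylate synthase TYMS by 1.36 ± 0.13, adjusted p = 1.87e-07 and thymidine kinase TK1 by 1.5 ± 0.11, adjusted p = 1.23e-08. ODC1, the first enzyme of polyamine synthesis and a known MYC target, was at 796 and 1080 CPM in RAJI and 542 and 538 in P493-6. That difference of 0.77 ± 0.21, adjusted p = 0.00432 was under 2-fold and did not pass without the P493-6 Y518R library (adjusted p = 0.0689).

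The calls among genes of S phase and of mitosis all lay toward RAJI. Of 26 genes of S phase and DNA replication, 15 (57.7%, against 13.2% of all genes) were called higher in RAJI and none higher in P493-6, with a median log2 difference of 1.19 and 25 of 26 above 0. Of 25 genes of G2, mitosis and the spindle, 19 (76%) were called higher in RAJI and none higher in P493-6, with a median of 1.49 and all 25 above 0. No gene of either list passed even an unadjusted p of 0.05 as higher in P493-6, and DESeq2 called the same numbers. Without the RAJI 3R library the counts higher in RAJI were 17 and 22, and without RAJI Y518R 13 and 19. PCNA, the clamp of the replicative polymerases, was at 332 and 378 CPM in RAJI and 115 and 109 in P493-6 (1.67 ± 0.1, adjusted p = 1.26e-09), and MCM5 of the replicative helicase was at 286 and 325 CPM in RAJI and 95.6 and 91.8 in P493-6 (1.7 ± 0.15, adjusted p = 1.02e-07). Cyclin E2 (CCNE2) was at 42.1 and 41.8 CPM in RAJI and 4.68 and 6.35 in P493-6 (2.94 ± 0.15, adjusted p = 1.05e-10). The largest difference in the mitotic list was that of TTK, the checkpoint kinase, with 74.8 and 81 CPM in RAJI and 11.4 and 12 in P493-6 (2.73 ± 0.15, adjusted p = 2.35e-10). MKI67, the proliferation marker Ki-67, was at 745 and 756 CPM in RAJI and 228 and 234 in P493-6 (1.7 ± 0.17, adjusted p = 2.25e-07). For each of these 5 genes both RAJI libraries lay above both P493-6 libraries. All 5 were called genes, for which the call rule makes this likely, so it adds no support. In RAJI, 22 of 26 S phase genes and 21 of 25 mitotic genes were lower in the 3R library, whose part here was not tested.

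The D cyclins split the lines. CCND2 (cyclin D2) was at 0.205 and 0.256 CPM in RAJI and 499 and 499 in P493-6, a log2 difference of -11.05 ± 0.3, adjusted p = 1.41e-13. CCND3 (cyclin D3), the D cyclin of germinal centre cells, ran the other way, at 219 and 186 CPM in RAJI and 33.6 and 36.5 in P493-6 (2.53 ± 0.19, adjusted p = 8.79e-09). CDK6, a kinase that both cyclins activate, was at 235 and 222 CPM in RAJI and 104 and 105 in P493-6 (1.13 ± 0.14, adjusted p = 4.95e-06). Several inhibitors were higher in RAJI as well. CDKN2C, an INK4 inhibitor of CDK4 and CDK6, was at 108 and 106 CPM in RAJI and 1.38 and 0.893 in P493-6 (6.56 ± 0.17, adjusted p = 8.43e-14), and CDKN2A, another of that family, was at 91 and 88.8 CPM in RAJI and 9.09 and 8.2 in P493-6 (3.38 ± 0.21, adjusted p = 2.59e-09). CDKN1B, which encodes p27, differed by 2.64 ± 0.15, adjusted p = 2.63e-10. CDKN1A, which encodes the CDK inhibitor p21, was at 97.7 and 80.7 CPM in RAJI and 246 and 267 in P493-6 (-1.52 ± 0.17, adjusted p = 9.76e-07). In all, 6 of 15 genes of this list (40%) were called higher in RAJI and 3 (20%) higher in P493-6, against 13.2% and 19% of all genes, or 7 and 3 without the RAJI 3R library.

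**Figure D2:**
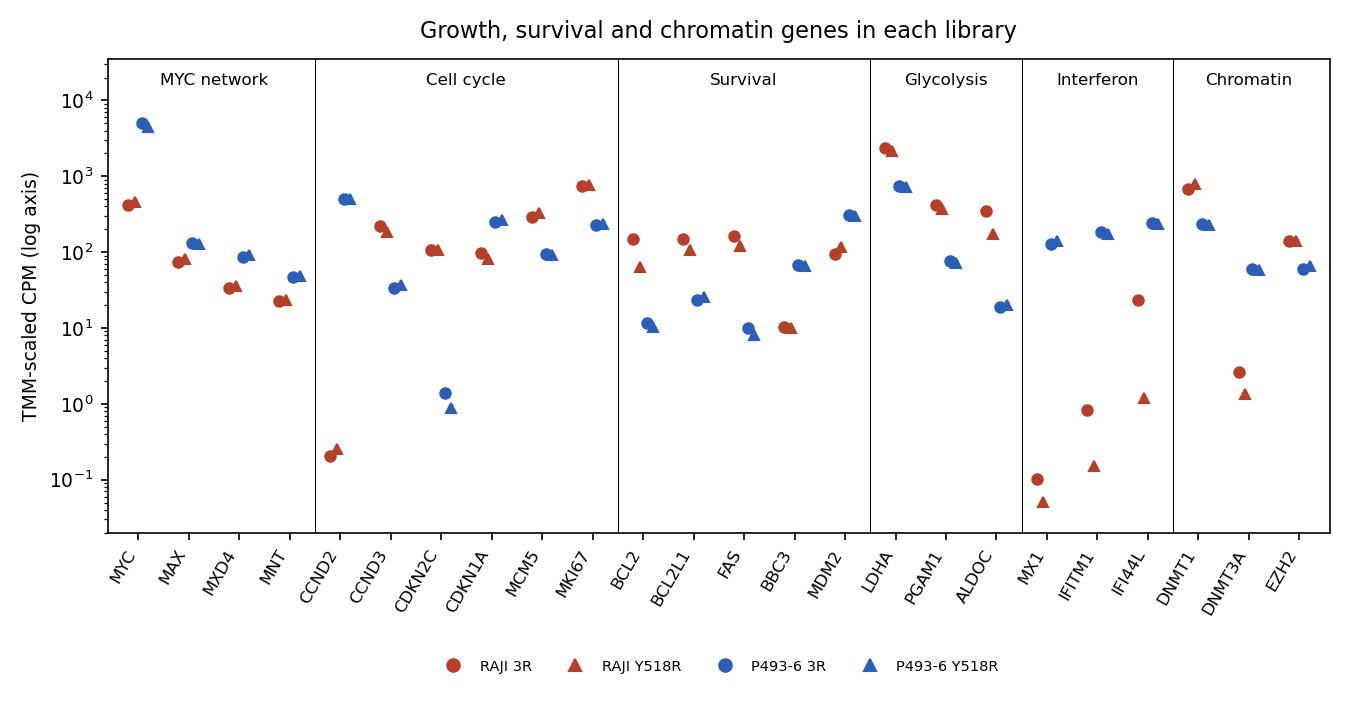
TMM-scaled CPM on a log axis for growth, survival, metabolic, interferon and chromatin genes, 1 marker per library (red RAJI, blue P493-6; circles 3R, triangles Y518R). MYC, CCND2, MX1 and DNMT3A sit higher in P493-6, CDKN2C, MKI67, FAS and PGAM1 higher in RAJI, and the RAJI libraries lie apart for IFI44L.

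The death receptor genes TNFRSF10B and FAS differed between the lines in opposite directions. TNFRSF1A, also a death receptor gene, is described below with the receptors and was higher in P493-6. TNFRSF10B, a receptor for the death ligand TRAIL, was at 69.5 and 49.5 CPM in RAJI and 333 and 374 in P493-6 (-2.59 ± 0.16, adjusted p = 9.28e-10). FAS, the receptor of FAS ligand, which NF-kappaB also drives, was at 161 and 119 CPM in RAJI and 9.98 and 8.1 in P493-6 (3.95 ± 0.17, adjusted p = 1.73e-11). MDM2, a ubiquitin ligase, was at 95.2 and 117 CPM in RAJI and 306 and 298 in P493-6 (-1.51 ± 0.12, adjusted p = 1.78e-08), and the RNA-binding protein gene ZMAT3 was at 73.5 and 65.8 CPM in RAJI and 399 and 349 in P493-6 (-2.42 ± 0.17, adjusted p = 4.34e-09). For TNFRSF10B, FAS, MDM2 and ZMAT3, all called genes, the libraries of the lines did not overlap, which the call rule makes likely.

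Of the 16 genes of the BCL2 family tested, 5 (31.2%) were called higher in RAJI and 3 (18.8%) higher in P493-6, against 13.2% and 19% of all genes. The anti-apoptotic BCL2 was at 147 and 63.2 CPM in RAJI and 11.7 and 10.3 in P493-6, a log2 difference of 3.24 ± 0.3, adjusted p = 1.34e-07 and of 2.47 without the RAJI 3R library. BCL2L1 (BCL-xL) was at 149.6 and 107 CPM in RAJI and 23.4 and 26 in P493-6 (2.38 ± 0.15, adjusted p = 1.14e-09), and BCL2A1, a target of NF-kappaB, was at 75.3 and 36.5 CPM in RAJI and 4.78 and 4 in P493-6 (3.64 ± 0.4, adjusted p = 1.35e-06, and 3.01 without RAJI 3R). The calls higher in P493-6 were all pro-apoptotic BH3 genes. They were BBC3 (PUMA) at 10.4 and 10 CPM in RAJI and 67.9 and 66.3 in P493-6 (-2.72 ± 0.23, adjusted p = 3.91e-08), BMF (-2.83 ± 0.29, adjusted p = 3.64e-07) and PMAIP1 (NOXA; -1.71 ± 0.19, adjusted p = 9.98e-07). BCL2L11 (BIM), also a BH3 gene, went the other way at 208 and 198 CPM in RAJI and 72.8 and 68.1 in P493-6 (1.53 ± 0.18, adjusted p = 2.07e-06).

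Of 24 germinal centre and Burkitt's lymphoma genes tested, 12 (50%) were called higher in RAJI and 2 (8.33%) higher in P493-6. The shares of all genes were 13.2% and 19%, and the median log2 difference of the list was 0.97. BCL6, the repressor that directs the germinal centre program, was at 208 and 241 CPM in RAJI and 0.31 and 0.265 in P493-6, a log2 difference of 9.59 ± 0.32, adjusted p = 9.09e-13. GCET2, a signalling adaptor of these cells, was at 478 and 376 CPM in RAJI and 14.9 and 19 in P493-6 (4.66 ± 0.18, adjusted p = 3.37e-12). The CD10 gene MME was at 129 and 167 CPM in RAJI and 8.67 and 11 in P493-6 (3.9 ± 0.16, adjusted p = 7.16e-12). S1PR2, the sphingosine phosphate receptor that keeps B cells in the germinal centre, differed by 4.17 ± 0.19, adjusted p = 2.71e-11, and MYBL1, a factor of its dark zone, by 4.4 ± 0.26, adjusted p = 7.57e-10. For these 5 called genes both RAJI libraries lay above both P493-6 libraries, which the call rule makes likely.

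Other members of that list had almost no counts in P493-6. RGS13, which dampens chemokine receptor signals, was at 289 and 272 CPM in RAJI and 3 counts summed over P493-6, a ratio of 5545 (95% counting interval 1897 to 26890). SERPINA9, a serpin of germinal centre B cells, was at 137 and 84.3 CPM in RAJI and 1 count in P493-6, a ratio of 6568 (95% counting interval 1178 to 259500). Its fitted log2 difference, which depends on the prior count, was 12.3 and ran from 11.7 to 14.3 as each of the 4 libraries was left out. The list was not uniform. TCL1A, an AKT coactivator, was at 139.6 and 139 CPM in RAJI and 238 and 238 in P493-6 (-0.77 ± 0.14, adjusted p = 0.000151), under 2-fold. The calls higher in P493-6 were RGS16, which regulates G protein signals (-1.3 ± 0.17, adjusted p = 5.76e-06), and PIK3R3, a regulatory subunit of PI3 kinase (-1.66 ± 0.21, adjusted p = 5.22e-06).

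Among 25 B cell transcription factors, 6 (24%) were called higher in RAJI and 5 (20%) higher in P493-6, against 13.2% and 19% of all genes. Besides BCL6, RAJI was higher for POU2AF1, the OCT coactivator, at 604 and 594 CPM against 176 and 189 in P493-6 (1.72 ± 0.12, adjusted p = 4.59e-09). RUNX3, a factor that EBNA2 induces, was at 455 and 397 CPM in RAJI and 81.8 and 77.6 in P493-6 (2.42 ± 0.2, adjusted p = 2.63e-08). The others were SPIB (1.63 ± 0.18, adjusted p = 9.86e-07), MEF2C (1.55 ± 0.13, adjusted p = 5.65e-08) and IKZF1, which encodes Ikaros (1.16 ± 0.1, adjusted p = 5.9e-08). P493-6 was higher for BACH2, which delays plasma cell differentiation, at 67.6 and 69.3 CPM against 4.77 and 8.35 in RAJI (-3.38 ± 0.23, adjusted p = 2.85e-09). IRF4, a factor of activated and plasma cells, was at 55.6 and 26.2 CPM in RAJI and 136 and 129.8 in P493-6 (-1.74 ± 0.23, adjusted p = 6.03e-06). IKZF2 (-2.81 ± 0.22, adjusted p = 1.7e-08) and ZEB2 (-1.73 ± 0.12, adjusted p = 6.8e-09) followed, and the remaining call, MEF2B, rested on under 3 CPM.

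Of 15 plasma cell genes, 3 were called higher in RAJI and 3 higher in P493-6, which is 20% each way against 13.2% and 19% of all genes. The calls toward RAJI were CD27, described below with the receptors, SEC11C and SLAMF7. SLAMF7, a surface receptor of plasma cells, was at 57.2 and 27.2 CPM in RAJI and 1.89 and 1.72 in P493-6 (4.57 ± 0.62, adjusted p = 9.74e-06, 3.6 without RAJI 3R and 5.25 without RAJI Y518R). SEC11C, a subunit of the signal peptidase, was at 154 and 148 CPM in RAJI and 67.8 and 66.3 in P493-6 (1.17 ± 0.14, adjusted p = 3.48e-06). The calls toward P493-6 were IRF4, given above, SDC1 and TNFRSF17. SDC1 (CD138) had 0 counts in RAJI and was at 6.37 and 3.64 CPM in P493-6, at least 64.7-fold higher, taking 3 counts over both RAJI libraries as the floor. TNFRSF17, the BCMA receptor, was at 1.44 and 1.59 CPM in RAJI and 12.9 and 14.2 in P493-6 (-3.16 ± 0.49, adjusted p = 6.42e-05). XBP1, the secretory factor, was at 206 and 168 CPM in RAJI and 287 and 280.0 in P493-6 (-0.6 ± 0.14, adjusted p = 0.0015), under 2-fold.

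Of 25 genes of B cell receptor signalling tested, 21 were not called, 4 (16%, against 13.2% of all genes) were higher in RAJI and none higher in P493-6, by edgeR and by DESeq2. Over all genes, 19% were called higher in P493-6. Without the fold minimum, 13 of the list passed the adjusted p as higher in RAJI and 5 as higher in P493-6. The shares of all genes were 31.3% and 34%. In the list, 14 and 5 passed the unadjusted p. Without RAJI Y518R 6 were called higher in RAJI. CR2 (CD21), the coreceptor through which the Epstein-Barr virus enters B cells, was at 529 and 343 CPM in RAJI and 0.172 and 0.265 in P493-6 (10.91 ± 0.38, adjusted p = 1.59e-12). The inhibitory receptor CD22 (1.28 ± 0.15, adjusted p = 1.7e-06) and the PI3 kinase adaptor PIK3AP1 (1.72 ± 0.15, adjusted p = 6.98e-08) were called higher in RAJI as well.

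**Figure D3:**
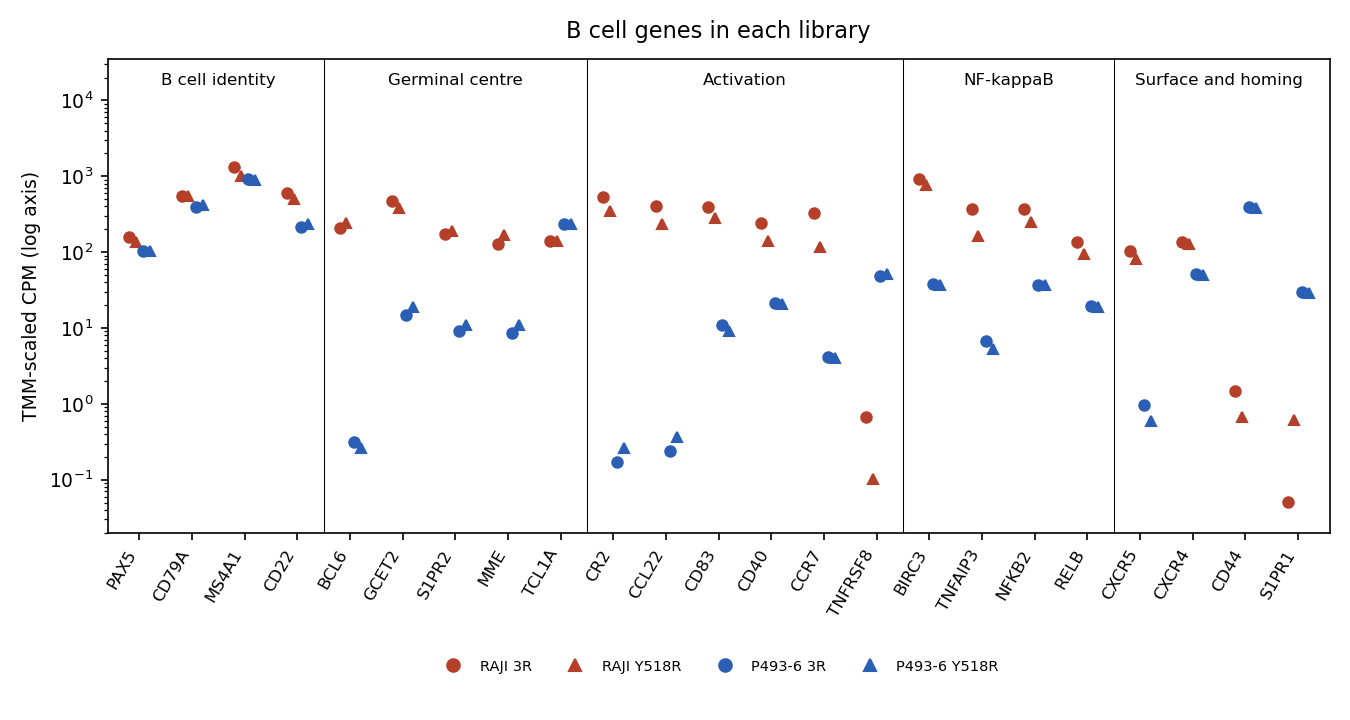
TMM-scaled CPM on a log axis for B cell genes, 1 marker per library (red RAJI, blue P493-6; circles 3R, triangles Y518R). PAX5, CD79A and MS4A1 lie close together, BCL6, CR2 and CCL22 are under 1 CPM in P493-6, and CD44 and S1PR1 are high in P493-6.

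Activation genes known from B cells transformed by the Epstein-Barr virus were the list with the highest median. Of 32 tested, 23 (71.9%) were called higher in RAJI and 2 (6.25%) higher in P493-6, against 13.2% and 19% of all genes, with a median log2 difference of 3.37. The counts were 23 and 4 without the RAJI 3R library and 21 and 2 with DESeq2. CCL22, a chemokine that draws regulatory T cells, was at 408 and 232 CPM in RAJI and 0.241 and 0.364 in P493-6 (9.98 ± 0.32, adjusted p = 5.65e-13). CD83, a surface marker of activation, was at 396 and 280.3 CPM in RAJI and 10.9 and 9.09 in P493-6 (5.07 ± 0.2, adjusted p = 4.5e-12). The costimulator CD80 (7.63 ± 0.46, adjusted p = 9.04e-10) and the receptor CD40, at 238 and 141 CPM in RAJI and 21.3 and 20.7 in P493-6 (3.18 ± 0.28, adjusted p = 8.37e-08), were higher in RAJI too.

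CCR7, the lymph node homing receptor, was at 324 and 115 CPM in RAJI and 4.2 and 4.03 in P493-6, a log2 difference of 5.66 ± 0.46, adjusted p = 3.03e-08. Its RAJI libraries lay far apart, and the difference was 4.77 without RAJI 3R and 6.31 without RAJI Y518R. EBI3, a cytokine subunit found through viral induction, was at 229 and 110.0 CPM in RAJI and 3.92 and 3.24 in P493-6 (5.55 ± 0.4, adjusted p = 5.88e-09), and at 4.64 without RAJI 3R and 6.23 without RAJI Y518R. SLAMF1, at 118 and 45.5 CPM in RAJI and 3.13 and 2.41 in P493-6, differed by 4.82 ± 0.31, adjusted p = 2.07e-09 and by 4.12 without RAJI 3R. The cytokine IL10 was at 16 and 10.3 CPM in RAJI and had 0 counts in P493-6, at least 259.9-fold higher by the same floor of 3 counts. DESeq2 did not call IL10 (adjusted p = 0.092). The lymphotoxin genes LTA (6.09 ± 0.58, adjusted p = 1.64e-07) and LTB (3.49 ± 0.3, adjusted p = 4.81e-08) were also called higher in RAJI.

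The exceptions in that list were few. TNFRSF8, which encodes CD30, was at 0.667 and 0.102 CPM in RAJI and 48.8 and 50.9 in P493-6 (-7 ± 0.46, adjusted p = 2.29e-09, -8.91 without RAJI 3R and -6.17 without RAJI Y518R). MARCKS, a membrane substrate of protein kinase C, was at 1.18 and 2.1 CPM in RAJI and 38.8 and 31.2 in P493-6 (-4.42 ± 0.3, adjusted p = 6.94e-09). FCER2 (CD23), an EBNA2 target, was at 145 and 67 CPM in RAJI and 179.6 and 214 in P493-6 (-0.93 ± 0.28, adjusted p = 0.00806), and GPR183, a migration receptor, at 29.9 and 15.4 CPM in RAJI and 51.6 and 50.8 in P493-6 (-1.17 ± 0.37, adjusted p = 0.0106). Neither was called, since both were under 2-fold with 3R, and without RAJI Y518R their adjusted p was 0.205 and 0.165. FCER2 also did not pass without P493-6 Y518R (adjusted p = 0.11) or with DESeq2 (adjusted p = 0.0846), and GPR183 without P493-6 3R (adjusted p = 0.0712) or with DESeq2 (adjusted p = 0.102).

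The NF-kappaB list gave 10 of 23 genes (43.5%, against 13.2% of all genes) called higher in RAJI and none higher in P493-6, with a median log2 difference of 1.18. The counts were 10 and 1 without the RAJI 3R library, 13 and 0 without RAJI Y518R, and 10 and 0 with DESeq2. Only IKBKB and TRAF3, described below, passed the adjusted p as higher in P493-6, and no other did at an unadjusted p under 0.05. BIRC3, an inhibitor of apoptosis and a direct target, was at 912 and 768 CPM in RAJI and 38.4 and 36.4 in P493-6 (4.49 ± 0.14, adjusted p = 5.65e-13). The factor genes NFKB2, at 365 and 249 CPM in RAJI and 37 and 36.9 in P493-6 (3.05 ± 0.18, adjusted p = 8.18e-10), and RELB (2.58 ± 0.24, adjusted p = 1.55e-07) belong to the noncanonical branch. NFKB1 of the canonical branch differed by 0.42 ± 0.1, adjusted p = 0.00155, under 2-fold. Feedback inhibitors were among the called genes. TNFAIP3 (A20) was at 373 and 164 CPM in RAJI and 6.68 and 5.36 in P493-6 (5.45 ± 0.32, adjusted p = 5.26e-10, and 4.81 without RAJI 3R). CYLD (3.1 ± 0.23, adjusted p = 7.63e-09), TNIP1 (1.88 ± 0.13, adjusted p = 5.69e-09) and NFKBIE (2.22 ± 0.18, adjusted p = 2.54e-08) also restrain the pathway, and CFLAR (2.35 ± 0.17, adjusted p = 9.63e-09) blocks caspase 8. NFKBIA, the classic inhibitor, was at 232 and 114 CPM in RAJI and 79.2 and 71.2 in P493-6 (1.18 ± 0.2, adjusted p = 7.81e-05), but under 2-fold with Y518R.

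Some upstream members ran the other way. IKBKB, the kinase IKK-beta, was at 46.8 and 33.2 CPM in RAJI and 86 and 95.8 in P493-6 (-1.19 ± 0.15, adjusted p = 3.85e-06), and TRAF3, which restrains the noncanonical branch, was at 115 and 128 CPM in RAJI and 178 and 177 in P493-6 (-0.55 ± 0.11, adjusted p = 0.000327). Neither reached 2-fold with both peptides. In RAJI, 30 of 32 activation genes and 18 of 23 NF-kappaB genes were higher in the 3R than in the Y518R library, with median log2 ratios of 0.71 and 0.33, against 17 of 32 and 14 of 23 in P493-6. The part of this gap in the comparison was not tested.

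**Figure D4:**
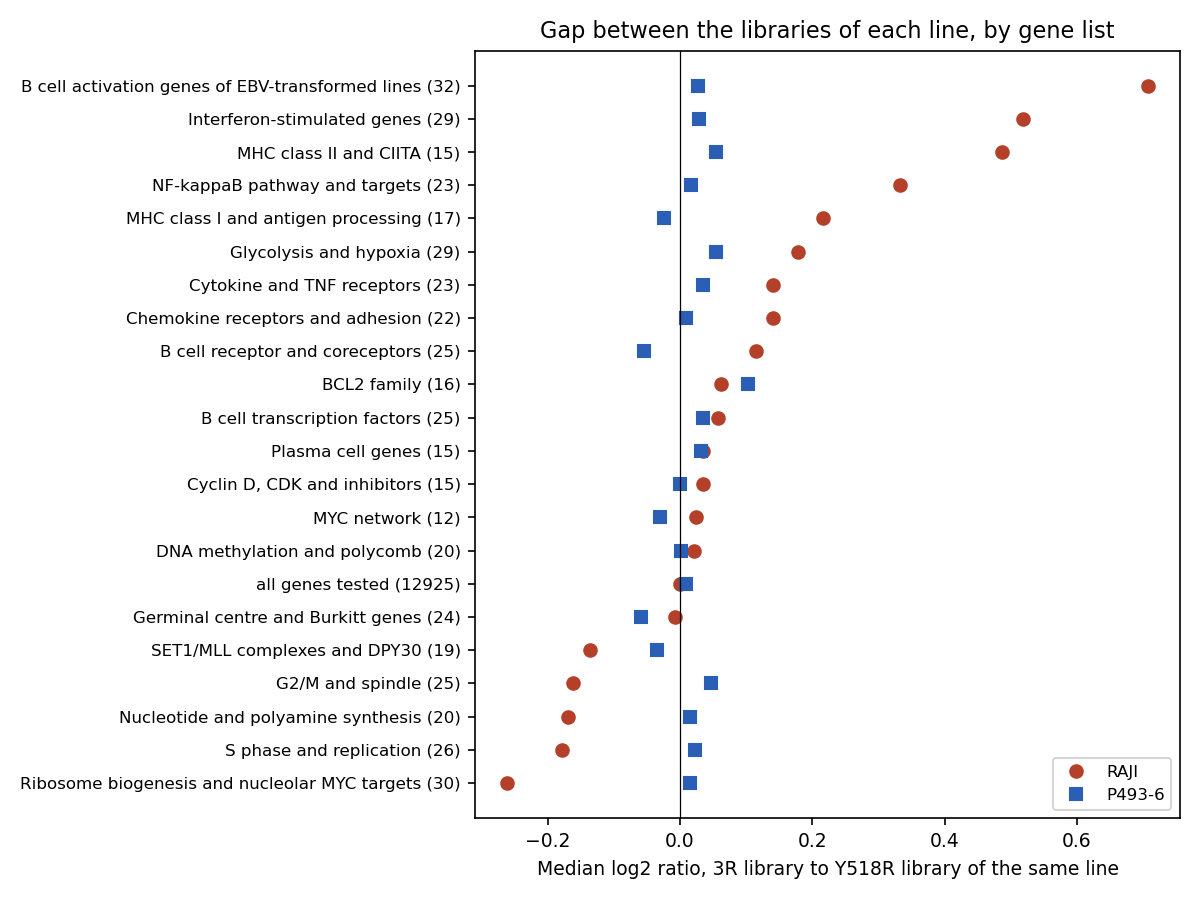
Median log2 ratio of the 3R to the Y518R library within RAJI (red circles) and within P493-6 (blue squares), for each gene list with its number of tested genes. Among the lists not plotted are those of markers of other lineages and those added later. In RAJI the plotted medians run from -0.26 for ribosome biogenesis to 0.71 for activation genes, while in P493-6 they lie between -0.06 and 0.10.

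Promoters of the called NF-kappaB genes were read for a kappaB motif, since all were called in the same direction. The letters searched were GGG, any 2 bases, then TTTCC, on either strand, in the 250 bases before each start listed in the RefSeq promoter table (GRCh38.p14). At least 1 match was found for 5 of the 8 called genes with a window (BIRC3, CYLD, NFKB2, TNFAIP3 and TNIP1), against 2.65% of all 8939 tested genes with one, 3.75% of genes called higher in RAJI and 2.25% of those higher in P493-6. Of the 12 genes of the same list that were not called and have a window, 5 also had a match (NFKB1, NFKBIA, NFKBIB, REL and TRAF3), or 41.7% against 62.5% of the called genes. The list holds known NF-kappaB targets, so a share above that of all genes says nothing of the difference between the lines. The motif was chosen after other forms had been looked at, and a match is only a run of letters. For comparison, the E-box CACGTG, which MYC and MAX bind, was in 11.5% of all windows by gene, 10.7% of genes higher in RAJI and 12.6% of those higher in P493-6. The 216 bases of the BIRC3 window that hold no annotated exon (chr11:102317234-102317449, plus strand) are shown with the 30 bases around the match in NFKB2 (chr10:102394496-102394525) and in TNFAIP3 (chr6:137867188-137867217), with matches in capitals. Only 30 bases are shown for NFKB2 and TNFAIP3 because the match shown overlaps an annotated exon.
BIRC3: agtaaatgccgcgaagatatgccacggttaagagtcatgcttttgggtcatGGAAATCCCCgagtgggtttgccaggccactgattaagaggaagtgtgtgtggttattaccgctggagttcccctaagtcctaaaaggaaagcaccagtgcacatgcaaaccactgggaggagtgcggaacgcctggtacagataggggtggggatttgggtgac
NFKB2: agaaGGGGCTTTCCcggccctgagccctgc
TNFAIP3: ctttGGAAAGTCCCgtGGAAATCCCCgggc
BIRC3 and TNFAIP3 hold the same 10 letters, GGAAATCCCC, and TNFAIP3 holds another match beside it.

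Of 15 genes of class II antigen presentation tested, 7 (46.7%) were called higher in RAJI and 1 (6.67%) higher in P493-6, against 13.2% and 19% of all genes, with a median of 0.97. The counts were 6 and 2 without the RAJI 3R library and 9 and 1 without RAJI Y518R. CIITA, the master activator of class II, was at 303 and 208 CPM in RAJI and 69 and 71.3 in P493-6 (1.86 ± 0.16, adjusted p = 6.66e-08). CD74, the invariant chain, was at 5069 and 4180 CPM in RAJI and 1927 and 1980 in P493-6 (1.25 ± 0.15, adjusted p = 3.05e-06). HLA-DOB, which tunes peptide loading in B cells, was at 94.8 and 67.4 CPM in RAJI and 12.2 and 13.3 in P493-6 (2.65 ± 0.24, adjusted p = 1.03e-07). The antigen-binding chains were mixed. HLA-DRA was at 1852 and 1321 CPM in RAJI and 847 and 783 in P493-6 (0.97 ± 0.19, adjusted p = 0.000353), under 2-fold, while HLA-DQB1 was at 16.5 and 9.62 CPM in RAJI and 57.5 and 52.9 in P493-6 (-2.09 ± 0.21, adjusted p = 5.56e-07). The DP chains were lower in RAJI, past the adjusted p but under 2-fold with 3R. HLA-DPA1 was at 214 and 149 CPM in RAJI and 368 and 354 in P493-6 (-0.99 ± 0.23, adjusted p = 0.00116, and 0.0664 with DESeq2), and HLA-DPB1 was at 79.3 and 62.5 CPM in RAJI and 122 and 114 in P493-6 (-0.74 ± 0.18, adjusted p = 0.00179). In class I, 4 of 17 genes (23.5%) were called higher in RAJI and 1 (5.88%) higher in P493-6, or 4 and 2 without the RAJI 3R library. HLA-C was higher in P493-6 (-2.17 ± 0.18, adjusted p = 4.11e-08), and PSMB9, an immunoproteasome subunit, was higher in RAJI (1.95 ± 0.17, adjusted p = 6.05e-08). HLA genes are polymorphic and alike, so reads of the lines' own alleles may have been counted unequally, which was not tested. In RAJI 13 of the 15 class II genes were higher in the 3R library, against 10 of 15 in P493-6.

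Of 29 interferon-stimulated genes tested, 14 (48.3%) were called higher in P493-6 and 2 (6.9%) higher in RAJI, against 19% and 13.2% of all genes, with a median log2 difference of -1.28. The counts were 18 and 1 without the RAJI 3R library and 11 and 2 without RAJI Y518R. IFITM1, a membrane protein that blocks viral entry, was at 0.821 and 0.154 CPM in RAJI and 185 and 175 in P493-6 (-8.52 ± 0.59, adjusted p = 4.59e-09, -10.2 without RAJI 3R and -7.71 without RAJI Y518R). MX1, an antiviral GTPase, had 3 counts in RAJI and was at 127 and 138 CPM in P493-6, a ratio of 1730 (95% counting interval 592 to 8389) toward P493-6. Its fitted log2 difference, which depends on the prior count, was -10.73, and -11.6 without RAJI 3R and -9.98 without RAJI Y518R. IFI44L showed how far the RAJI libraries lay apart, at 23.1 and 1.18 CPM against 245 and 232 in P493-6 (-4.34 ± 0.83, adjusted p = 0.000265, -8.22 without RAJI 3R and -2.98 without RAJI Y518R). GBP1, a guanylate-binding protein, was higher in RAJI at 3.85 and 6.71 CPM against 0.0688 and 0.0661 in P493-6 (6.18 ± 0.6, adjusted p = 2.36e-07). In RAJI 25 of the 29 genes were higher in the 3R library, against 16 of 29 in P493-6.

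Homing and adhesion genes were called often and in both directions, 10 of 22 higher in RAJI (45.5%, against 13.2% of all genes) and 7 higher in P493-6 (31.8%, against 19%), or 8 of the latter without the RAJI 3R library. CXCR5, which guides B cells to follicles, was at 104 and 80 CPM in RAJI and 0.964 and 0.595 in P493-6 (6.91 ± 0.37, adjusted p = 1.43e-09). CXCR4, the receptor of dark zone cells, differed by 1.39 ± 0.16, adjusted p = 1.17e-06. P493-6 was higher for CD44, the hyaluronan receptor, at 398 and 383 CPM against 1.49 and 0.665 in RAJI (-8.5 ± 0.35, adjusted p = 9.74e-12, and -9.32 without RAJI 3R). S1PR1, which leads lymphocytes out of lymphoid tissue, was at 0.0513 and 0.614 CPM in RAJI and 29.4 and 29.2 in P493-6 (-6.46 ± 0.48, adjusted p = 1.98e-08, -5.59 without RAJI 3R and -9.02 without RAJI Y518R). The sphingosine phosphate receptors therefore ran opposite ways, S1PR2 higher in RAJI and S1PR1 higher in P493-6.

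Of 23 cytokine and TNF receptor genes, 7 (30.4%) were called higher in RAJI, or 6 without the RAJI 3R library, and 6 (26.1%) higher in P493-6, against 13.2% and 19% of all genes. CD27, a marker of antigen-experienced B cells, was at 82.3 and 97.4 CPM in RAJI and 11.7 and 9.06 in P493-6 (3.14 ± 0.29, adjusted p = 1.04e-07). TNFRSF1A, the main TNF receptor, was at 1.95 and 2.2 CPM in RAJI and 41.4 and 39.8 in P493-6 (-4.29 ± 0.18, adjusted p = 9.3e-12), and the RNA sensor TLR7 was at 2.16 and 1.49 CPM in RAJI and 50.8 and 47.3 in P493-6 (-4.76 ± 0.31, adjusted p = 1.91e-09). IL7R, a receptor of early lymphoid cells, was at 11.1 and 13.7 CPM in RAJI and 52.5 and 51.3 in P493-6 (-2.08 ± 0.44, adjusted p = 0.000614).

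Of 29 genes of glycolysis and hypoxia tested, 12 (41.4%) were called higher in RAJI and 3 (10.3%) higher in P493-6, against 13.2% and 19% of all genes, with a median log2 difference of 1.0. The counts were 11 and 4 without the RAJI 3R library and 15 and 3 without RAJI Y518R, and 27 of the 29 genes were higher in the 3R than in the Y518R library of RAJI, against 18 in P493-6. LDHA, which makes lactate, was at 2370 and 2128 CPM in RAJI and 744 and 717 in P493-6 (1.62 ± 0.14, adjusted p = 7.54e-08). GAPDH was at 7279 and 6683 CPM in RAJI and 2300 and 2169 in P493-6 (1.64 ± 0.15, adjusted p = 9.65e-08); it is often used as a reference gene. PGAM1 (2.4 ± 0.11, adjusted p = 2.23e-11), TPI1 (1.98 ± 0.14, adjusted p = 3.64e-09), ENO1 (1.65 ± 0.12, adjusted p = 7.38e-09) and PKM2 (1.78 ± 0.14, adjusted p = 1.52e-08) are further enzymes of the pathway. HK2, the inducible hexokinase, was lower in RAJI at 176 and 172 CPM against 268 and 264 (-0.61 ± 0.09, adjusted p = 2.93e-05), under 2-fold. Genes known to respond to hypoxia were called in both directions. Toward RAJI these were PFKFB4 (4.07 ± 0.28, adjusted p = 3.45e-09) and PFKFB3 (1.26 ± 0.12, adjusted p = 1.5e-07), which set the level of a glycolytic activator, the aldolase ALDOC (3.71 ± 0.27, adjusted p = 6.07e-09) and PDK1, which holds back pyruvate oxidation (1.51 ± 0.17, adjusted p = 1.17e-06). ADM (adjusted p = 0.221), NDRG1 (adjusted p = 0.168) and ANKRD37 (adjusted p = 0.687) were not called. The 3 calls toward P493-6 were VEGFA, BNIP3 and EGLN3. VEGFA, the angiogenic factor, was at 48.9 and 44.5 CPM in RAJI and 235 and 267 in P493-6 (-2.43 ± 0.18, adjusted p = 1.01e-08), and BNIP3, a mitophagy receptor, was at 1.95 and 0.665 CPM in RAJI and 35 and 30 in P493-6 (-4.63 ± 0.27, adjusted p = 6.21e-10, and -5.57 without RAJI 3R). EGLN3, an oxygen-sensing hydroxylase, had 0 counts in RAJI and was at 28 and 23.5 CPM in P493-6, at least 334-fold higher.

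DPY30, the target of the Y518R peptide, was at 46.5 and 47 CPM in RAJI and 29.3 and 29.6 in P493-6. The log2 difference of 0.67 ± 0.14, adjusted p = 0.000536 was under 2-fold, and libraries of a line lay closer to each other than to the other line. Of 19 genes of the SET1/MLL complexes 16 were not called. The share called higher in RAJI was 5.26% (1 gene) and that higher in P493-6 10.5% (2 genes), against 13.2% and 19% of all genes. C16orf53, which encodes the PA1 subunit, was at 93.4 and 103 CPM in RAJI and 41 and 39.6 in P493-6 (1.28 ± 0.11, adjusted p = 4.92e-08). KDM6A, the H3 lysine 27 demethylase of these complexes, was at 27.4 and 24.5 CPM in RAJI and 72.5 and 67.4 in P493-6 (-1.43 ± 0.13, adjusted p = 9.47e-08), and the methyltransferase SETD1B at 22.2 and 32 CPM in RAJI and 66.4 and 71.9 in P493-6 (-1.35 ± 0.16, adjusted p = 2.05e-06). The core subunit WDR5 was at 117 and 129 CPM in RAJI and 213 and 213 in P493-6 (-0.79 ± 0.1, adjusted p = 2.76e-06), under 2-fold. ASH2L, which DPY30 contacts, was at 49.3 and 38.1 CPM in RAJI and 30.2 and 32.2 in P493-6 (0.49 ± 0.14, adjusted p = 0.00536) and did not pass without RAJI 3R (adjusted p = 0.154).

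The DNA methyltransferases differed in direction. DNMT1, which maintains methylation at replication, was at 669 and 787 CPM in RAJI and 232 and 226 in P493-6 (1.66 ± 0.12, adjusted p = 4.27e-09). DNMT3A, which methylates new sites, was at 2.62 and 1.33 CPM in RAJI and 60.4 and 59 in P493-6 (-4.92 ± 0.19, adjusted p = 4.5e-12). TET2, which oxidizes methylated cytosine, was higher in P493-6 (-1.48 ± 0.22, adjusted p = 2.09e-05). In the polycomb complex EZH2, the H3 lysine 27 methyltransferase, was at 139 and 139.8 CPM in RAJI and 59.4 and 65.9 in P493-6 (1.15 ± 0.1, adjusted p = 9.65e-08), and its accessory subunit PHF19 differed by 1.87 ± 0.12, adjusted p = 2.25e-09. The list of 20 had 4 genes (20%) called higher in RAJI and 5 (25%) higher in P493-6, against 13.2% and 19% of all genes, or 6 of the latter without the RAJI 3R library.

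**Figure D5:**
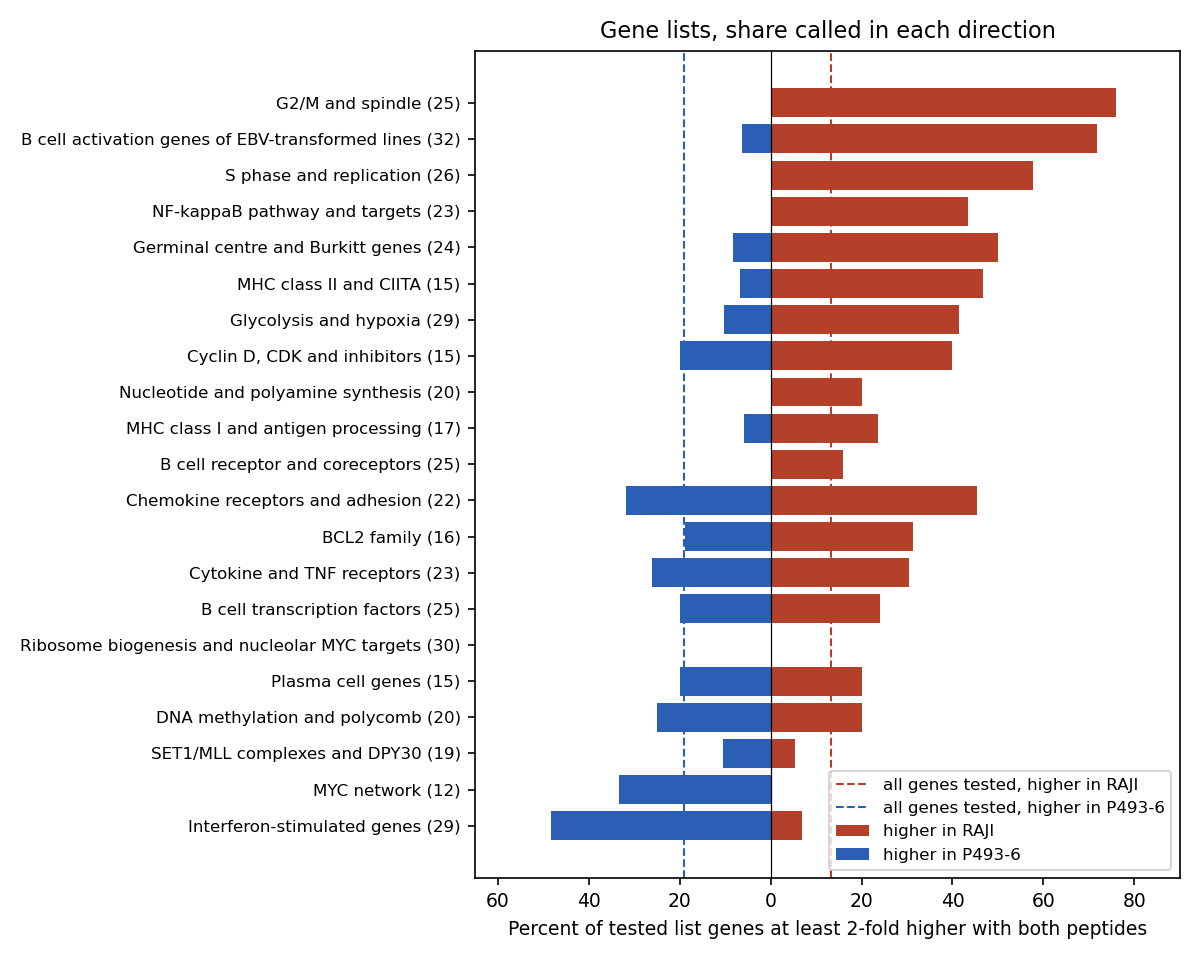
Share of tested genes of each plotted list called at least 2-fold higher in RAJI (red, to the right) or in P493-6 (blue, to the left), with the number tested in parentheses. Lists of markers of other lineages and lists added later are among those not plotted. Dashed lines mark the shares over all genes tested, 13.2% and 19%; the mitotic and activation lists reach 76% and 71.9% toward RAJI and the interferon list 48.3% toward P493-6.

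The largest differences were those of genes read in 1 line and at or near 0 counts in the other. Among called genes at 10 CPM or more in both libraries of a line, 19 higher in RAJI had 0 counts in P493-6 and 71 higher in P493-6 had 0 counts in RAJI. P493-6 was sequenced deeper. A count of 0 allows up to 3 counts, and each bound written as at least takes 3 counts summed over both libraries of the line at 0, for counting error only. UCHL1, a ubiquitin hydrolase, was at 348 and 398 CPM in RAJI with 1 count in P493-6, a ratio of 22120 (95% counting interval 3969 to 873700). Its fitted log2 difference was 14.1, and 13.4 without P493-6 3R and 16.2 without P493-6 Y518R. MET, the hepatocyte growth factor receptor, was at 31.9 and 30.2 CPM in RAJI with 0 counts in P493-6, at least 614-fold higher. WNT5A, a secreted WNT ligand, was at 26.7 and 24.7 CPM, at least 508-fold higher in RAJI, and NLRP4, an innate immune protein, at 41.1 and 26.4 CPM, at least 667-fold higher. In the other direction CAMKV, a kinase-like protein of neurons, was at 126 and 144 CPM in P493-6 with 0 counts in RAJI, at least 1759-fold higher. EDA2R, a TNF receptor family member, was at 54.2 and 54.1 CPM, at least 704-fold higher, and EYA2, a transcription coactivator, at 47.2 and 40.9 CPM, at least 572-fold higher in P493-6. For WNT5A and EYA2, DESeq2 gave adjusted p of 0.0664 and 0.0603, so their calls were lost with that tool. The fitted log2 value of a gene at or near 0 in 1 line depends on the prior count, and none is given for genes at 0.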

How the data were processed

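Poly(A)-selected mRNA libraries were deposited by the authors as raw counts of reads per gene symbol. Per the submitters' processing notes, HTSeq 0.6.1, TopHat2 2.1.1 and CASAVA 1.8.4 were used, along with DESeq and DESeq2 3.0. These notes name both GRCh38 and hg19, so no gene coordinates are given except from RefSeq tables. No source used here gives the strand setting, so overlapping and antisense genes cannot be told apart. Reads given to no gene (23.4% to 44.7%) stayed out of library sizes and tests.

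The counts of all 16 libraries (8 lines, each with 3R and Y518R) were fitted with edgeR 4.0.16 (R 4.3.3), with TMM scaling and terms for line and peptide. Genes passed filterByExpr with a minimum count of 10 in the 4 libraries. The p-values of the quasi-likelihood test were adjusted by Benjamini-Hochberg. Per-peptide log2 ratios used a prior count of 2, and a call needed an adjusted p under 0.05 and 2-fold in both pairs. The spread came from all 8 lines, since 4 libraries leave 1 residual degree of freedom. RNA genes without poly(A) tails (253 tested) were fitted but not called. The peptide label pairs libraries across lines and is in the fit as a block. Alternatives used DESeq2 1.42.0, limma 3.58.1 (voom), other scalings, filters and fold minimums, and left out each library. The procedure was tested on simulated data.

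The samples, gene lists and named genes were chosen with earlier results of these data known. Named genes are MYC, MS4A1, PAX5 and DPY30, up to 3 called members with the smallest p in each list, members described for their role, and the 15 largest differences each way among called genes at 10 CPM or more in both libraries of a line. Not every gene or list chosen by these rules is described, and some items are not reported here. Intervals are exact at 95% and cover counting error only. MicroRNA and promoter sequences came from RefSeq (GRCh38.p14).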

Additional observations from a re-analysis of the deposited data

How the results depend on the processing

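The numbers of genes called higher in RAJI (1704) and in P493-6 (2452) stayed within 1.5 times of these values with size factors of DESeq2 (1683 and 2467), without scaling (1748 and 2416), with DESeq2 (1637 and 2370), with voom (1708 and 2450), without a filter (1694 and 2667) and with RNA genes without poly(A) tails removed (1708 and 2452). Leaving out 1 library gave 1715 to 1848 and 2391 to 2652. For pairing by peptide, the fit of only the 4 libraries with the replicate block gave 1705 and 2405, and the fit without the block gave 1708 and 2459. At 1 CPM or more in all 4 libraries the numbers were 1053 and 1114, because genes near 0 in 1 line are then not tested. Without a fold minimum they were 4045 and 4397, and with a 4-fold minimum 691 and 1525. Of the recomputed values of single genes, 3097 kept direction and side of the threshold, 26 no longer passed, 3 newly passed and 1 reversed. The reversal was MS4A1, at -0.0767 without RAJI 3R (adjusted p = 0.784), where the cause was not tested. MS4A1 passed without RAJI Y518R (0.73), with voom (0.35) and in the fit of 4 libraries with the replicate block (0.36). Depth limits the genes at 0 in a line, for which only lower bounds are given.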

Other observations

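Genes of the amino acid response were called higher in P493-6. The list of ATF4 targets, like the next 3 lists, was put together after the values had been seen, so its counts are a description. Of 21 genes tested, 17 (81%, against 19% of all genes) were called higher in P493-6 and none higher in RAJI by edgeR and by DESeq2, none even at an unadjusted p under 0.05, with a median log2 difference of -1.75. Without the RAJI 3R library 15 were called. ATF4, the factor translated under amino acid shortage, was at 436 and 473 CPM in RAJI and 1342 and 1303 in P493-6 (-1.54 ± 0.22, adjusted p = 1.51e-05). ASNS, which makes asparagine, was at 92.6 and 104 CPM in RAJI and 575 and 566 in P493-6 (-2.53 ± 0.2, adjusted p = 1.77e-08), and PSAT1, of serine synthesis, at 158 and 210.3 CPM in RAJI and 856 and 813 in P493-6 (-2.17 ± 0.27, adjusted p = 4.2e-06). ATF5, a related factor, was at 10.3 and 13.5 CPM in RAJI and 617 and 632 in P493-6 (-5.71 ± 0.25, adjusted p = 1.53e-11). Of 20 aminoacyl-tRNA synthetase genes, 5 (25%) were called higher in P493-6 and none higher in RAJI by either tool, where 1 passed the adjusted and the unadjusted p. The isoleucine enzyme IARS was at 461 and 506 CPM in RAJI and 1450 and 1478 in P493-6 (-1.6 ± 0.14, adjusted p = 4.92e-08). Of 78 cytosolic ribosomal protein genes, 8 (10.3%) were called higher in P493-6 and 3 (3.85%) higher in RAJI, both shares below the 19% and 13.2% of all genes, or 13 and 4 without the RAJI 3R library, and 56 and 5 passed the adjusted p. Over all genes, 34% passed the adjusted p as higher in P493-6 and 31.3% as higher in RAJI. RPS4X was at 1839 and 1560 CPM in RAJI and 4909 and 4385 in P493-6 (-1.45 ± 0.15, adjusted p = 3.45e-07). Ribosomal protein genes have many near-identical pseudogene copies, so their counts are uncertain.

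Of 19 actin cytoskeleton genes, 9 (47.4%) were called higher in RAJI and 3 (15.8%) higher in P493-6, against 13.2% and 19% of all genes. Beta-actin (ACTB) was at 6370 and 5715 CPM in RAJI and 1520 and 1562 in P493-6 (1.97 ± 0.13, adjusted p = 1.49e-09), and LCP1, the actin bundler of blood cells, was at 3920 and 3300 CPM in RAJI and 941 and 930.5 in P493-6 (1.95 ± 0.13, adjusted p = 2.15e-09). The intermediate filament gene VIM went the other way, at 210.5 and 140.5 CPM in RAJI and 711 and 660.4 in P493-6 (-1.96 ± 0.19, adjusted p = 1.93e-07). RDX, which links actin to the membrane, was at 0.77 and 0.0512 CPM in RAJI and 136 and 125 in P493-6 (-8.3 ± 0.31, adjusted p = 3e-12, -11.20 without RAJI 3R and -7.40 without RAJI Y518R).

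Some genes were above 1 CPM in only 1 of the 8 lines. At 10 CPM or more in both libraries of a line and under 1 CPM in the 14 other libraries there were 13 genes for RAJI and 14 for P493-6. Those of RAJI include CXCR5, IL10, MET, UCHL1 and SERPINA9, and, chosen after its values were seen, FCRL3, an Fc receptor-like protein of B cells, at 214 and 141 CPM. Those of P493-6 include EYA2 and, chosen in the same way, EPHA2, an ephrin receptor, at 20.7 and 18.4 CPM with 0 counts in RAJI.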
